A study of Mus musculus with 10 samples.

Results

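Amino acid and neurotransmitter transporters of 7 solute carrier families were followed in the interscapular brown fat of mice, a tissue that burns fuel to make heat. Members were chosen by gene symbol (families Slc1, Slc3, Slc6, Slc7, Slc36, Slc38 and Slc43), and the creatine carrier Slc6a8 was left out. This gave 60 of the 20295 genes in the count table. Cold mice (5) spent 3 days at 4 °C, and control mice (5) stayed at 22 °C. The treatment tag of the cold samples pairs 4 °C with the words for room temperature, and their group was taken from titles, source names and the protocol. All 10 were single-housed, wild-type males of the C57BL/6JBomTac strain, 8 weeks old, with 1 library of poly-A selected RNA per mouse.

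These carriers move amino acids and related transmitters across the plasma membrane and the lysosomal membrane. Some are driven by sodium or protons, while others exchange one amino acid for another, so that the uptake of one depends on the export of the other. Several work as heterodimers, in which a light chain of the Slc7 family does the transport and a heavy chain, Slc3a1 or Slc3a2, brings it to the cell surface. Sodium-coupled carriers of the Slc6 family end synaptic signals in the nervous system. In fat, amino acids are used as fuel, for protein synthesis and as a signal to the growth regulator mTORC1, and Slc36a2 is known as a surface protein of brown adipocytes.

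Library totals were 5676963 to 6923932 counts in cold and 4446163 to 5776905 counts in control libraries. Levels are given in CPM, read counts scaled to a common library total, and levels of different genes are compared only as CPM per kb of counted sequence. A gene was called when its adjusted p was under 0.05 in edgeR's quasi-likelihood test over all 11229 genes with enough reads. The labelled tissue was checked by Ucp1, the uncoupling protein of brown fat, at 18532 ± 852 CPM in cold and 9123 ± 801 CPM in control libraries (SD, n = 5 each). Of 14 brown adipocyte markers tested, Ucp1 among them, 4 were called higher in cold and 2 lower (Adipoq and Cox8b). Over all genes tested, these shares were 10.2% and 9.14%. Leaving out single libraries gave 3 to 7 markers higher and 1 to 3 lower. Of the 13 nerve markers (sympathetic neuron and Schwann cell), Th and Dbh, enzymes of noradrenaline synthesis, had no read in any library. The rest had reads, and the 13 summed to 150 to 248 CPM in cold and 125 to 207 CPM in control libraries. Control replicate 2 stood apart from the other controls on the second principal component of all genes (-36.5 against 2.3 to 23.7), and cold replicate 5 from the other cold libraries (-23.5 against -0.88 to 6.03), so values without them are given beside results that they move. In whole tissue, fewer cells of a type and less RNA per cell cannot be told apart.

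Of the 60 transporter genes, 25 had enough reads to be tested, and 7 of these passed the test. In cold libraries 5 were higher (Slc3a2, Slc7a6, Slc7a7, Slc43a2 and Slc6a6) and 2 were lower (Slc1a3 and Slc1a5). Over all genes tested, 10.2% were called higher and 9.14% lower, so the 7 of 25 (28%) stand beside 19.3%. The cold and the control libraries did not overlap for 6 of the 25 tested members (24%), beside 14% of all genes tested. These 6 were the called members other than Slc3a2. Of them, 4 lay above the controls (7.39% of all genes) and 2 below (6.57%). Slc7a7 and Slc43a2 were called and at least 2-fold different, beside 3.54% of all genes. The median log2 fold change of cold over control was 0.22 over the 25 tested members and -0.02 over all genes tested. With 1 library left out, the median of the members ran from 0.014 (without cold replicate 4) to 0.30 (without control replicate 2). Of the filter's cutoff of 1.75 CPM, Slc7a7 was over it in 5 cold but 2 control libraries, and Slc1a4 in 2 cold and 4 control libraries. The 18 members that were not called had adjusted p values from 0.0815 to 0.930.

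**Figure D1:**
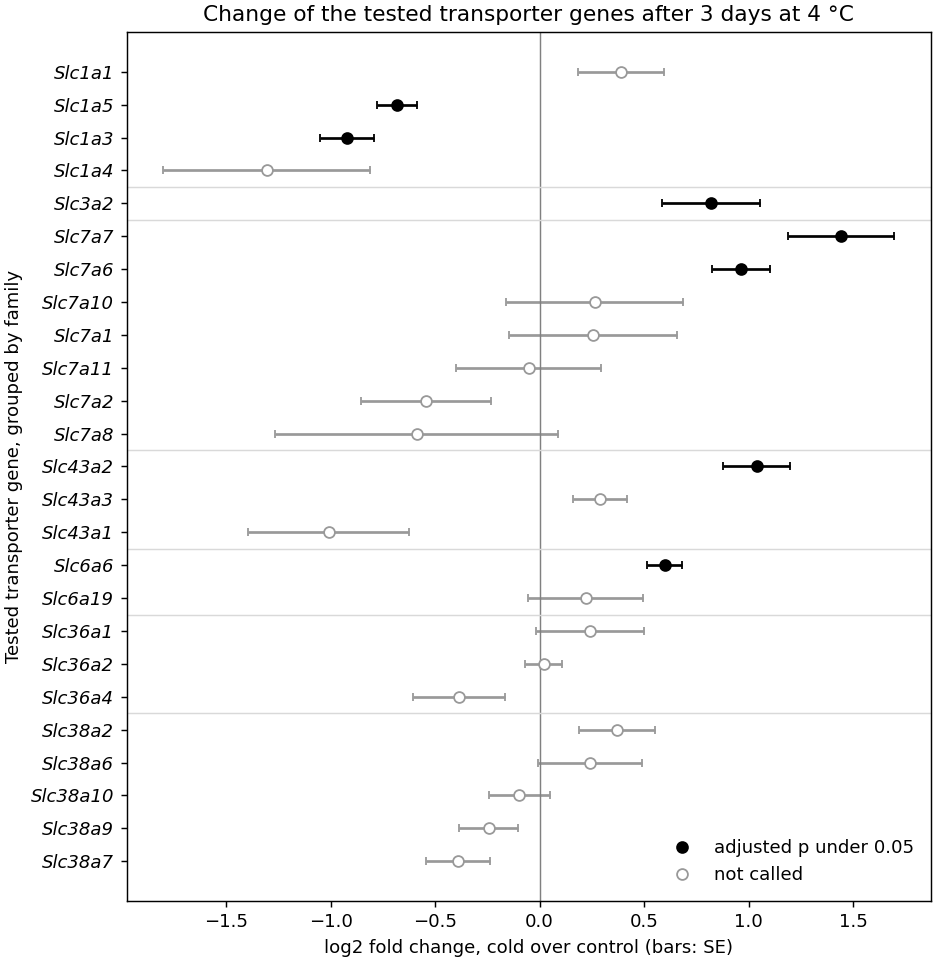
Log2 fold change of cold over control (horizontal axis) for the 25 tested transporter genes, grouped by family, with bars of 1 SE; filled points have an adjusted p under 0.05. Slc7a7 lay farthest to the right at 1.44, and the called genes Slc1a3 and Slc1a5 lay to the left of 0 at -0.92 and -0.68.

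Per length, 2 carriers of small neutral amino acids dominated the set. Slc36a2, a proton-coupled carrier of glycine, alanine and proline, was at 299 ± 25.0 CPM per kb in cold and 295 ± 28.1 CPM per kb in control libraries. Slc1a5, the sodium-dependent exchanger that brings in glutamine, was at 216 ± 13.5 CPM per kb in cold and 347 ± 45.9 CPM per kb in control libraries. Together they made up 62.7 ± 1.55% of the summed level of all 60 members in cold and 72.5 ± 3.06% in control libraries. Slc36a2 lay above Slc1a5 in 5 of 5 cold libraries and in 1 of 5 control libraries. The summed level of the 60 was 822 ± 12.7 CPM per kb in cold and 886 ± 27.1 CPM per kb in control libraries. Next in cold libraries came Slc3a2 (65.1 ± 8.94 CPM per kb), Slc38a10 (44.7 ± 4.67), Slc6a6 (42.0 ± 4.67), Slc7a6 (37.7 ± 3.69) and Slc38a2 (35.2 ± 3.47). From Slc38a10 on, neighbours in this order differed by less than their SDs combined. In control libraries Slc38a10 (47.8 ± 11.3 CPM per kb), Slc3a2 (36.9 ± 16.96) and Slc1a3 (31.0 ± 6.08) followed, with overlapping spreads.

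**Figure D2:**
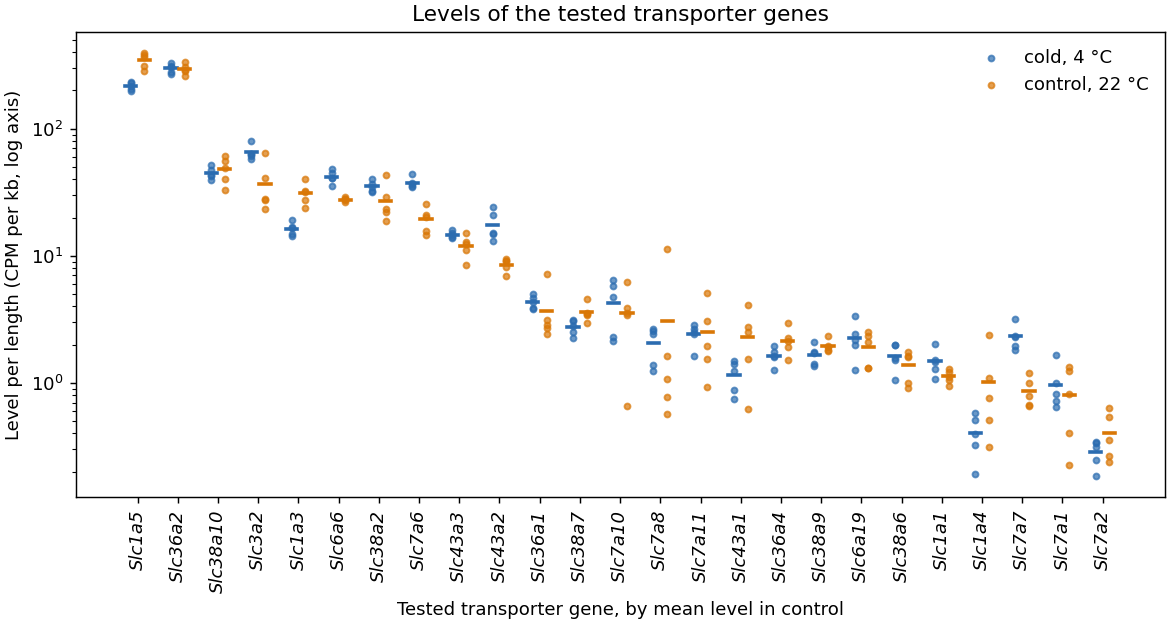
Level per length (CPM per kb, log axis) of the 25 tested transporter genes, ordered by their mean in control libraries; points are the 5 cold (blue, left) and 5 control (orange, right) libraries and lines their means. Slc1a5 and Slc36a2 lay at or above 199 CPM per kb in all 10 libraries, and no other gene passed 80.5.

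Among the glutamate and neutral amino acid carriers of the Slc1 family, 2 of 4 tested genes fell and 0 rose. Slc1a5 (chromosome 7, 17366695 to 17383623, build mm9) had 571, 627, 599, 549 and 638 CPM in the 5 cold libraries and 1043, 859, 789, 1017 and 1080 CPM in the 5 controls. Every cold library lay below every control, and the log2 fold change was -0.68 (SE 0.10, adjusted p = 0.000436). Slc1a3, a sodium-coupled carrier that takes up glutamate and aspartate (chromosome 15, 8584124 to 8660807), had 62.7, 69.9, 80.4, 60.3 and 71.3 CPM in cold libraries. Its control libraries held 116, 99.8, 134, 135 and 168 CPM, again with no overlap (log2 fold change -0.92, SE 0.13, adjusted p = 0.000443). Both calls held in each of the 10 fits that left out 1 library. Slc1a4, an exchanger of alanine, serine and cysteine, had 0.748 to 2.28 CPM in cold and 1.24 to 9.41 CPM in control libraries, the highest in control replicate 2 (log2 fold change -1.31, SE 0.49, adjusted p = 0.0815). Without that library it was at -0.69 (adjusted p = 0.238), and without cold replicate 5 as well at -0.53 (adjusted p = 0.332). Slc1a1, a carrier of glutamate and cysteine, was at 5.47 ± 1.33 CPM in cold and 4.16 ± 0.489 CPM in control libraries (log2 fold change 0.39, SE 0.21).

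**Figure D3:**
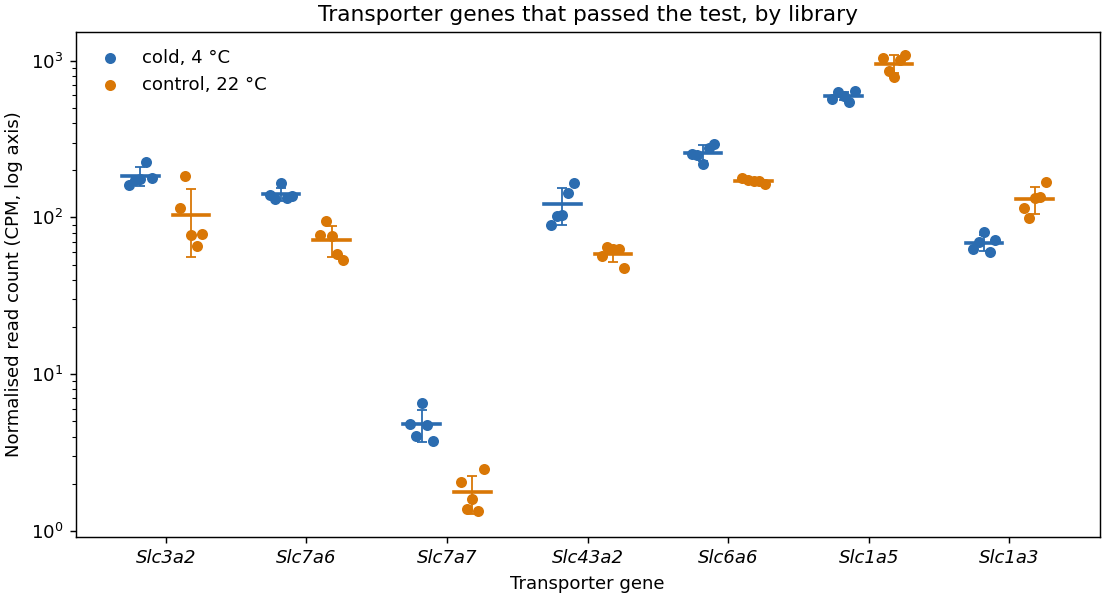
Normalised read count (CPM, log axis) of the 7 transporter genes that passed the test, in the 5 cold (blue, left) and 5 control (orange, right) libraries; lines are means and bars 1 SD. Only Slc3a2 had overlapping groups, through control replicate 2 at 183 CPM.

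Slc3a2, the heavy chain also known as 4F2 or CD98 (chromosome 19, 8781372 to 8797859), rose in the cold. Its cold libraries held 161, 173, 176, 226 and 179 CPM and its controls 114, 183, 77.2, 65.9 and 78.6 CPM (log2 fold change 0.82, SE 0.23, adjusted p = 0.0262). The cold libraries lay above 4 of the 5 controls, and control replicate 2 lay within their range. Without that library the log2 fold change was 1.12 (adjusted p = 0.000199). Leaving out single libraries removed the call in 5 of 10 cases (adjusted p 0.0505 to 0.0696), namely for cold replicates 3 and 4 and for control replicates 3, 4 and 5.

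Of the light chains that pair with Slc3a2, the 2 exchangers of cationic for neutral amino acids both rose. Slc7a6 (chromosome 8, 108692775 to 108722604) had 139, 131, 165, 133 and 137 CPM in cold libraries and 77.6, 95.1, 75.6, 58.6 and 53.9 CPM in controls. The groups did not overlap, and the gene was 1.95-fold higher in the cold (log2 fold change 0.96, SE 0.14, adjusted p = 0.000498). Slc7a7 (chromosome 14, 54989126 to 55036539) was much less abundant, with 4.81, 4.04, 6.56, 4.76 and 3.74 CPM in cold and 2.04, 1.37, 1.61, 1.35 and 2.48 CPM in control libraries. Its groups did not overlap either, and its log2 fold change of 1.44 (SE 0.25, adjusted p = 0.00193) was the largest of the tested members. Both calls held in each fit that left out 1 library. The span of Slc7a7 overlaps that of Oxa1l, on the opposite strand, by 228 bases; Oxa1l was at 166 CPM in cold and 162 CPM in control libraries, and no strand setting is given for the counting.

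Slc7a7 is known to be abundant in macrophages, and of 11 tested macrophage markers 2 rose and 1 fell (1 to 3 and 0 to 1 with single libraries left out). The marker counts stand beside 10.2% of all genes tested called higher and 9.14% called lower. The median log2 fold change of the 11 markers was -0.07. The lysosomal protein Cd68 was at 19.0 ± 12.5 CPM in cold and 4.36 ± 1.51 CPM in control libraries, and the integrin Itgam at 9.0 ± 6.68 CPM in cold and 2.05 ± 1.77 CPM in control libraries, while the complement gene C1qa fell (17.7 ± 2.34 CPM in cold, 26.3 ± 5.83 CPM in control libraries). Of 10 fits without a single library, Cd68 was called in 10, Itgam in 6 and C1qa in 7. Itgam passed the filter's cutoff of 1.75 CPM in all cold libraries (2.06 to 19.0 CPM) but not in all controls (0.919 to 5.16 CPM). The summed markers ranged from 111 to 420 CPM in cold and from 145 to 297 CPM in control libraries, so the groups overlapped, and all 11 had reads. In cold replicate 5, where this sum was lowest, Slc7a7 was at 3.74 CPM, the lowest of the cold libraries and above every control. Cd68 and Itgam were also at their lowest cold level there, at 4.49 and 2.06 CPM. In cold replicate 4 the sum, Cd68 (36.2 CPM) and Itgam (19.0 CPM) were at their highest. Slc7a7 was at 4.76 CPM in that library, within the range of the other cold libraries (3.74 to 6.56 CPM). Of 10 endothelial markers 4 were called higher and none lower, and their sum was 949 to 1116 CPM in cold and 726 to 974 CPM in control libraries, with an overlap through control replicate 2. Of 9 fibroblast markers 2 were called higher, 6 without cold replicate 5, 7 without control replicate 2 as well, and 1 in 7 of the other fits without a single library. Their sum was 793 to 1034 CPM in 4 cold libraries and 339 CPM in cold replicate 5, against 453 to 670 CPM in control libraries. Pericyte and smooth muscle markers were called higher for 1 of 10, with 1 lower. White adipocyte markers were called higher for 1 of 6. The 1 tested red cell marker was called higher and the 1 tested mast cell marker lower, calls lost in 7 and 4 of 10 fits without a single library. Of 2 muscle and 4 nerve markers tested none was called, and no lymphocyte marker had enough reads. The 13 muscle markers in the count table were uneven between libraries. They summed to 475 and 350 CPM in cold replicates 2 and 3 and to 155 CPM in control replicate 4. In the remaining libraries of both groups this sum was 38.3 to 56.1 CPM. The part of any of these cell types in the changes of the transporter genes was not tested.

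The other light chains of Slc3a2 were not called. Slc7a8, a carrier of neutral amino acids that lies 304512 bases from Slc7a7, had 4.98, 5.59, 10.3, 10.8 and 9.73 CPM in cold libraries. Its controls held 4.30, 45.3, 2.30, 6.57 and 3.10 CPM, so that control replicate 2 was far above all other libraries. The log2 fold change was -0.59 (SE 0.68, adjusted p = 0.577) and, without control replicate 2, 0.98 (adjusted p = 0.0449). Slc7a11, which exchanges cystine for glutamate, was at 22.2 ± 4.33 CPM in cold and 23.3 ± 15.1 CPM in control libraries (log2 fold change -0.05, SE 0.35), with controls from 8.63 to 47.05 CPM. Slc7a10, a carrier of small neutral amino acids known from white adipocytes, was at 7.32 ± 3.39 CPM in cold and 6.09 ± 3.41 CPM in control libraries (log2 fold change 0.26, SE 0.42). Its span overlaps that of Lrp3 by 234 bases on the opposite strand. Slc7a5, the light chain that brings in leucine and other large neutral amino acids, had 3 to 16 counts per library in cold and 0 to 6 counts in control libraries and was under the filter.

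Slc7a6 was the most abundant light chain. Per length it made up 76.9 ± 2.84% of the 6 light chains in cold and 66.0 ± 7.85% in control libraries. The light chains summed to 49.1 ± 5.97 CPM per kb in cold and 29.5 ± 7.23 CPM per kb in control libraries. Relative to Slc3a2 this sum was 0.767 ± 0.145 in cold and 0.856 ± 0.165 in control libraries, ratios that overlap between the groups (0.570 to 0.946 and 0.646 to 1.01).

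**Figure D4:**
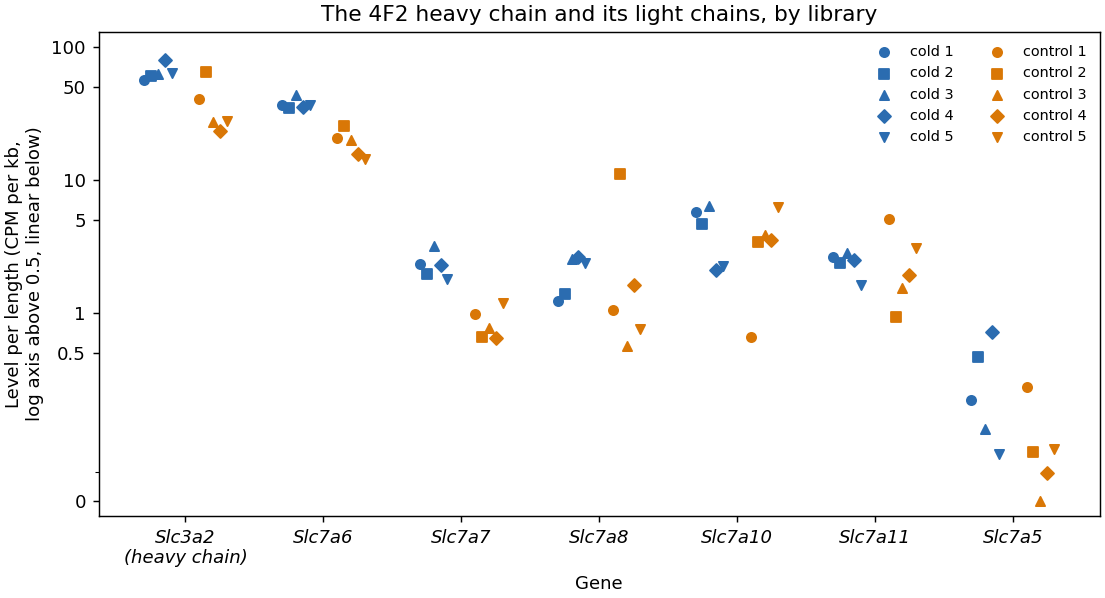
Level per length (CPM per kb, log axis above 0.5 and linear below it) of the heavy chain Slc3a2 and of 6 light chains in each cold (blue, left) and control (orange, right) library, with a symbol for each replicate number. Slc7a6 and Slc7a7 separated the groups, while control replicate 2 (orange square) was high for Slc3a2 and for Slc7a8.

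Promoter sequences are shown for the heavy chain and for the light chains with the letters of an amino acid response element. The cell's response to amino acid shortage acts through the factor ATF4, which binds such elements. The windows are RefSeq's, 250 bases before to 50 after a transcript start, written 5′ to 3′ in build GRCm38.p6, with capitals for TGATGNAA on either strand. In Slc7a7 (chr14:54417895-54418194, minus strand, the outermost of its 5 windows) the letters begin 141 bases and 1 base before the start. The latter match runs past the start. The next window of Slc7a7 (chr14:54417653-54417952) holds this same match 243 bases before its own start, and the remaining windows hold none. Slc7a11 (chr3:50443564-50443863, minus strand) holds them 66 and 47 bases before the start. The window of Slc3a2 (chr19:8713848-8714147, minus strand) holds none of the letters searched.
Slc7a7: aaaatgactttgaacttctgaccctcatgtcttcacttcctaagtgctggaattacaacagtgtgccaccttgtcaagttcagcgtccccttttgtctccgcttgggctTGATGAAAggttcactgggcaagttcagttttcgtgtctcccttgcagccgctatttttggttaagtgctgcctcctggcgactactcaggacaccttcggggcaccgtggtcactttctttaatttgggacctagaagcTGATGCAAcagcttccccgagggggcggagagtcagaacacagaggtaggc
Slc7a11: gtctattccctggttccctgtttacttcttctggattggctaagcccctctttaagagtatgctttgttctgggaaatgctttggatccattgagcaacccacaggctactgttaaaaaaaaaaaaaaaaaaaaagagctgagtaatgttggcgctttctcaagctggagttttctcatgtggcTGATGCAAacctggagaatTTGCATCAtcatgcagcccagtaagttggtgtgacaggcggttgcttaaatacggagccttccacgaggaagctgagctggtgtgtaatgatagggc
Slc3a2: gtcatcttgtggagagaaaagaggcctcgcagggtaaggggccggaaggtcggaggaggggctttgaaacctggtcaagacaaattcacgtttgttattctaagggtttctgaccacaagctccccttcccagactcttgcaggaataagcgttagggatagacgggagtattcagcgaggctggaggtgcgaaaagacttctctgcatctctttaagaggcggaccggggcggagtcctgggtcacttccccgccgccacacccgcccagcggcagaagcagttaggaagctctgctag

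Windows were found for 43 of the 60 members, among them 20 of the 25 tested ones. TGATGNAA occurred on either strand in 3 of the 43 (Slc1a4, Slc7a7 and Slc7a11), or 6.98%, and in 4.51% of 27025 genes with a window. Of the 3, Slc7a7 rose, and Slc1a4 and Slc7a11 were not called. The cAMP response element TGACGTCA occurred in 1 of the 43 (Slc38a6, 2.33%) and in 2.03% of all genes. The E-box CACGTG occurred in 8 (18.6%), of which Slc36a1, Slc38a7 and Slc43a1 were tested and none called, and in 8.09% of all genes. Median GC content was 57.0% over the members' windows and 52.7% over all windows, and its part in these shares was not tested. The estrogen-related receptor letters AAGGTCA occurred in 2 (Slc6a11 and Slc6a13, 4.65%) and in 5.38% of all genes. Both strands were read, no member's match overlapped that of another motif, and a match is a description, not a binding site.

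In the Slc43 family, carriers without a sodium or proton gradient, 1 of 3 genes rose. Slc43a2, which releases large neutral amino acids such as leucine and phenylalanine (chromosome 11, 75345196 to 75391074), had 89.5, 102, 104, 143 and 166 CPM in cold libraries. Its controls held 56.6, 64.5, 62.5, 62.5 and 47.7 CPM, below every cold library, and the gene was 2.06-fold higher (log2 fold change 1.04, SE 0.16, adjusted p = 0.000813). Slc43a1, a carrier of the same substrates, was at 2.93 ± 0.822 CPM in cold and 5.86 ± 3.33 CPM in control libraries (log2 fold change -1.01, SE 0.38, adjusted p = 0.0829). Its level was 1.58 CPM in control replicate 1, and without that library the log2 fold change was -1.24 (adjusted p = 0.0126). Without control replicate 2, the highest control at 10.4 CPM, it was -0.71 (adjusted p = 0.182). Slc43a3, a nucleobase carrier by its known substrates, was at 38.2 ± 2.39 CPM in cold and 31.1 ± 6.34 CPM in control libraries (log2 fold change 0.29, SE 0.13).

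Of the 18 members of the Slc6 family, which holds the transmitter carriers, 2 were tested. Slc6a6, the sodium-coupled carrier of taurine (chromosome 6, 91634061 to 91709057), had 253, 252, 219, 276 and 296 CPM in cold libraries and 178, 172, 172, 169.8 and 162 CPM in controls. All cold libraries lay above all controls, which spread little (coefficient of variation 11.1% in cold and 3.37% in control libraries), and the gene was 1.52-fold higher (log2 fold change 0.60, SE 0.08, adjusted p = 0.000418). Slc6a19, the neutral amino acid carrier of kidney and gut, was at 5.46 ± 1.86 CPM in cold and 4.66 ± 1.37 CPM in control libraries (log2 fold change 0.22, SE 0.28). Of the monoamine carriers, Slc6a2 (noradrenaline) had 1 count over the 10 libraries, Slc6a4 (serotonin) 6 and Slc6a3 (dopamine) 0. A count of 0 in a library allows up to 3 counts, or 0.428 to 0.561 CPM in cold and 0.505 to 0.689 CPM in control libraries. The carriers of GABA and betaine on chromosome 6 were also under the filter, but had reads in every library. Slc6a13 had 18, 7, 14, 14 and 8 counts in cold and 7, 4, 4, 4 and 4 counts in control libraries, and Slc6a12, 8978 bases away, 4, 3, 5, 3 and 5 counts in cold and 8, 13, 4, 9 and 7 counts in control libraries. In a fit with no filter Slc6a12 was lower (log2 fold change -1.32, SE 0.39, adjusted p = 0.0367), and Slc6a13 was at 1.05 (SE 0.39, adjusted p = 0.0919).

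The cationic amino acid carriers of the Slc7 family were low and not called. Slc7a1, which takes up arginine and lysine, was at 6.93 ± 2.92 CPM in cold and 5.77 ± 3.53 CPM in control libraries (log2 fold change 0.26, SE 0.40). Slc7a2, with the same substrates, was at 2.20 ± 0.519 CPM in cold and 3.13 ± 1.33 CPM in control libraries (log2 fold change -0.54, SE 0.31).

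In the Slc36 family of proton-coupled carriers none of 3 tested genes was called. Slc36a2 (chromosome 11, 54971970 to 54998579) had 804, 675, 758, 739 and 656 CPM in cold and 634, 738, 819, 688 and 704 CPM in control libraries. The groups overlapped throughout, and the log2 fold change was 0.02 (SE 0.09, adjusted p = 0.897). Slc36a1, its neighbour on the chromosome and a carrier of the lysosomal membrane, had 19.95 to 26.3 CPM in cold libraries and 12.9 to 16.3 CPM in 4 controls, with 38.1 CPM in control replicate 2. Its log2 fold change was 0.24 (SE 0.26), and 0.64 (adjusted p = 0.00323) without control replicate 2. Slc36a4, a carrier of proline and tryptophan, was at 3.18 ± 0.504 CPM in cold and 4.16 ± 1.01 CPM in control libraries (log2 fold change -0.38, SE 0.22).

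Of the 11 members of the Slc38 family, sodium-coupled carriers of glutamine and other neutral amino acids, 5 were tested and 0 called. Slc38a2, whose protein adjusts amino acid uptake to supply, had 150, 186, 160.2, 171 and 147 CPM in cold and 134, 198, 108, 87.1 and 103 CPM in control libraries. Control replicate 2 was the highest of all 10, and the cold libraries lay above the other 4 controls (log2 fold change 0.37, SE 0.18, adjusted p = 0.170, and 0.59 with an adjusted p = 0.00338 without control replicate 2). Slc38a10 was at 204 ± 21.3 CPM in cold and 218 ± 51.8 CPM in control libraries (log2 fold change -0.10, SE 0.15). The lysosomal members Slc38a7 and Slc38a9, a glutamine carrier and an arginine sensor of mTORC1, were at -0.39 (SE 0.15, adjusted p = 0.0902) and -0.24 (SE 0.14). Slc38a7 had 9.04 ± 1.23 CPM in cold and 11.8 ± 1.98 CPM in control libraries, and Slc38a9 14.8 ± 2.69 CPM in cold and 17.5 ± 1.98 CPM in control libraries. Slc38a6 was at 4.8 ± 1.13 CPM in cold and 4.07 ± 1.15 CPM in control libraries (log2 fold change 0.24, SE 0.25). Slc38a4, under the filter, had 4, 10, 10, 8 and 4 counts in cold and 2, 3, 0, 0 and 3 counts in control libraries. Its groups did not overlap in CPM, with 0.687 CPM in the lowest cold library and 0.619 CPM in the highest control. The count of 0 in control replicate 3 allows up to 0.689 CPM, which is above that cold library. With no filter the log2 fold change of Slc38a4 was 1.74 (SE 0.62, adjusted p = 0.0779).

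Control replicate 2 was above all 4 other controls for 13 of the 25 tested genes and below them for 4. It was at least 2-fold above their mean for 6 (Slc1a4, Slc3a2, Slc7a1, Slc7a8, Slc36a1 and Slc43a1). The median coefficient of variation over the 25 genes was 18.1% in cold and 27.3% in control libraries, and 18.0% in the controls without replicate 2. Without it, 9 members were higher and 2 lower at the threshold, beside 11.3% and 10.2% of all genes. The added genes were Slc7a8, Slc36a1, Slc38a2 and Slc43a3 (log2 fold change 0.38, adjusted p = 0.0369). The groups then did not overlap for 10 members, beside 18.7% of all genes. Without cold replicate 5 as well, 8 members were higher and 2 lower, beside 13.6% and 11.7% of all genes.

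**Figure D5:**
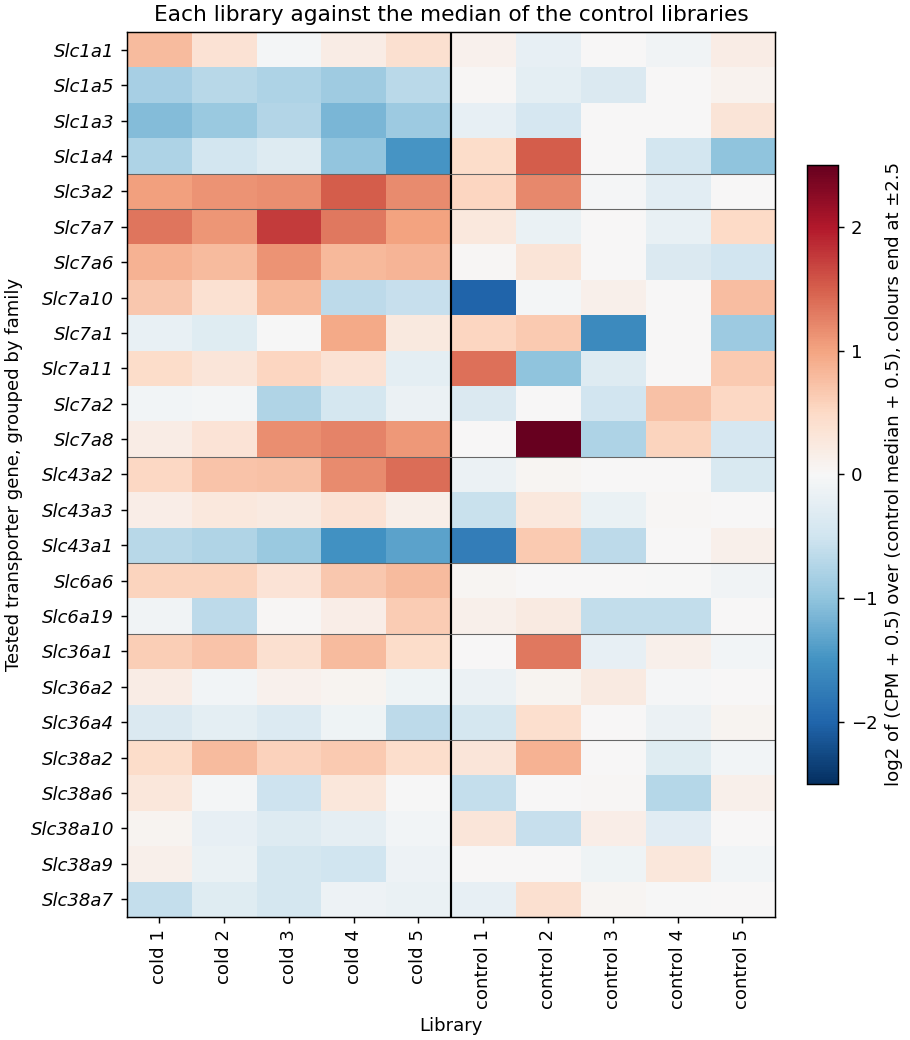
Each of the 10 libraries (columns, cold on the left) against the median of the controls for the 25 tested transporter genes (rows, by family), as log2 of CPM with 0.5 added; red is higher, blue lower, and colours end at 2.5. The column of control replicate 2 is red for Slc1a4, Slc3a2, Slc36a1 and Slc7a8, and for each of these it is the reddest of the controls.

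The remaining 35 members were under the filter. No read was counted for 10 of them (Slc1a6, Slc6a3, Slc6a5, Slc6a11, Slc6a14, Slc6a18, Slc6a20b, Slc7a9, Slc7a12 and Slc38a8). Between 1 and 7 counts over all 10 libraries were found for 14, among them the brain glutamate carrier Slc1a2 and Slc3a1, the heavy chain of kidney and gut. The other 11 had 14 to 104 counts, the highest for Slc6a9, a glycine carrier, which was at 1.74 ± 0.913 CPM in cold and 2.03 ± 1.57 CPM in control libraries. Slc38a1, a glutamine carrier next to Slc38a2, had 3 to 27 counts in cold and 2 to 10 counts in control libraries.

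Genes that use or sense amino acids moved in both directions. The counts of these lists, here and below, stand beside 10.2% of all genes tested called higher and 9.14% called lower. In the list of glutamine and glutamate enzymes, 4 of 22 tested genes rose and 3 fell, with a median log2 fold change of 0.02. Leaving out single libraries gave 2 (without cold replicate 3) to 5 higher, and leaving out control replicate 2 with cold replicate 5 gave 7. Got1, the cytosolic aspartate aminotransferase, had the largest change, at 142 CPM in cold and 40.7 CPM in control libraries (log2 fold change 1.80, SE 0.21), and the mitochondrial Got2 rose by 0.54 (SE 0.10). Gclc, the rate-limiting enzyme of glutathione synthesis, fell by 0.73. Glul, glutamine synthetase, was at 0.01 and not called. Of 24 genes of branched-chain amino acid breakdown, 9 fell and 3 rose (median -0.18); Dbt, a core subunit of the branched-chain dehydrogenase, rose by 0.79 and Mcee, the epimerase of propionate use, by 0.79, while the mitochondrial dehydrogenase Hsd17b10 fell by 0.98. Hsd17b10 had 105 to 211 CPM in cold libraries and 187 to 219 CPM in 4 controls, with 534 CPM in control replicate 2, so the groups overlapped. Without that library it was at -0.59, and its call was lost without any one of cold replicates 1 to 4. With 1 library left out, 5 (without cold replicate 1, 2 or 4) to 10 of this list fell. Of 17 genes of serine and glycine metabolism, 4 fell and 0 rose (median -0.14), led by Gcsh, of the glycine cleavage system (-0.75), and Shmt1, a serine hydroxymethyltransferase (-0.54). Of this list 1 to 4 fell with 1 library left out, 1 each without cold replicate 2 or 3, which also removed the call of Shmt1.

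In arginine and polyamine metabolism 2 of 15 genes rose and 4 fell (median -0.23); 2 fell without cold replicate 3 or 4. Odc1, the first enzyme of polyamine synthesis, rose by 0.96 (SE 0.10, adjusted p = 6.66e-05), whereas the polyamine oxidase Paox fell by 0.52 and Gamt, which makes creatine, by 1.06, a call lost in 7 of 10 fits without a single library. Gamt passed the filter's cutoff of 1.75 CPM in all controls (2.16 to 5.20 CPM) but not in all cold libraries (0.748 to 2.28 CPM). Of 14 genes of sulphur amino acids and taurine, 3 fell and 0 rose (median -0.25): Sqrdl, a sulphide oxidase, by 0.75, Mtr, methionine synthase, by 0.62 and Suox, sulphite oxidase, by 0.54. The calls of Mtr and Suox were lost in 4 and 5 of 10 such fits. The taurine-making enzymes Cdo1 and Csad were at -0.24 and -0.26 and not called. With 1 library left out, 1 (without cold replicate 2) to 4 of this list fell. Of 7 tested enzymes of GABA and monoamines, 2 fell and 0 rose (median -0.06): the histamine methyltransferase Hnmt, by 1.22 (SE 0.14), and the monoamine oxidase Maob, by 0.75.

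Of 31 genes of amino acid sensing by mTORC1, 5 rose and 4 fell (median 0.03). The Rag GTPase Rragd rose by 1.41 (SE 0.35) and Rragc by 0.48, while Rragb fell by 1.15 (SE 0.29) and Nprl2, a subunit of the complex that restrains Rag GTPases, by 0.55. Rragb passed the filter's cutoff of 1.75 CPM in all controls (2.27 to 5.10 CPM) but not in all cold libraries (1.14 to 2.22 CPM). Leaving out single libraries gave 3 (without cold replicate 3) to 5 higher and 2 to 4 lower genes, 2 in 6 of 10 fits. Of 24 genes of the amino acid response by ATF4, 1 rose and 2 fell (median 0.03). Fgf21, a secreted factor, rose by 2.82 and Eif4ebp1, a repressor of translation, fell by 0.97. Fgf21 was at 2.24 to 7.77 CPM in cold and 0.34 to 1.36 CPM in control libraries. Every control lay under the filter's cutoff of 1.75 CPM, so Fgf21 was tested only through its cold libraries. Atf4 and its target Asns, asparagine synthetase, were at 0.17 (adjusted p = 0.594) and 0.03 (adjusted p = 0.891). Leaving out single libraries gave 1 to 4 higher (4 without control replicate 1) and 2 to 4 lower (4 without control replicate 2). Among 17 tested carriers outside the 7 families, 2 rose and 1 fell (median -0.07): Slc25a15, the mitochondrial ornithine carrier, rose by 0.63, the lysosomal peptide carrier Slc15a3 by 1.39 (adjusted p = 0.0485), and Slc22a3, a carrier of organic cations and monoamines, fell by 0.76. The call of Slc15a3 was lost in 8 of 10 fits without a single library. Slc15a3 passed the filter's cutoff of 1.75 CPM in all cold libraries (2.06 to 9.35 CPM) but not in all controls (0.46 to 2.71 CPM). Of 9 tested partners and regulators of the transporters 1 fell and 0 rose (median -0.05), the ubiquitin ligase Nedd4 by 0.35 (adjusted p = 0.0178), a call lost without cold replicate 3 (adjusted p = 0.0503).

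The authors' deposited table lists 27 of the 60 members. Of these, the authors' deposited table has 5 higher and 4 lower at an adjusted p under 0.05: the 7 named above with Slc1a4 (log2 fold change -1.32, adjusted p = 0.0367) and Slc43a1 (-1.01, adjusted p = 0.0484). For the 25 members tested here, the log2 fold changes in the authors' deposited table differed from those given above by at most 0.018.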

How the data were processed

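Poly-A selected RNA of brown adipose tissue was sequenced from 5 cold-exposed and 5 control mice. The deposited counts are raw reads per RefSeq gene model, per the file headers and the values. STAR, edgeR and build mm9 are named, per the submitters' processing notes. For the counter, strand setting and versions, the sources used here give nothing. The authors' deposited table holds each gene's log2 fold change and log2 CPM with its p-value and FDR, per the file headers. 0 columns of single libraries were left unused, and 27 rows with an ambiguous symbol kept their RefSeq identifier. End minus start equals the given span for all 20295 genes, which makes starts 0-based; 1 was added to them.

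Cold was compared with control with edgeR 4.0.16 in R 4.3.3 (two-sided quasi-likelihood test, TMM scaling, filterByExpr, Benjamini-Hochberg over 11229 genes), tested on simulated data. The SE is the log2 fold change divided by the square root of F. A count of 0 allows up to 3 counts in a library, for counting error only. Alternatives were other scalings, filters, tests (DESeq2 1.42.0, limma-voom 3.58.1), a replicate block and fits without single libraries. Members, lists and the alternative without control replicate 2 and cold replicate 5 were chosen with earlier results of these data known. Every called member is given by library, every other tested member with a mean of at least 1 CPM by group, and of each pathway list the called genes leading by p (2) and by size of change (2); Slc6a12, Slc38a4, the monoamine carriers, marker genes and Glul, Cdo1, Csad, Atf4 and Asns were named after their values were seen. No set test was run.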

Additional observations from a re-analysis of the deposited data

Results flagged for a closer look

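Over 50 groups of 5 libraries (25 tested transporter genes in 2 groups), 5 held a library whose gap to the next was over 0.71 of the group's range; chance gives about 1 in 20. Slc7a8 in control replicate 2 was at 45.31 CPM, with the other controls from 2.30 to 6.57 CPM. Slc36a1 in the same library was at 38.05 CPM, with the other controls from 12.9 to 16.3 CPM. Slc38a9 in control replicate 4 was at 20.89 CPM, with the others from 15.9 to 17.3 CPM. In the cold group Slc3a2 was at 226.4 CPM in replicate 4, with the others from 161 to 179 CPM, and Slc7a6 at 164.6 CPM in replicate 3, with the others from 131 to 139 CPM.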

How the results depend on the processing

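Under the 20 alternatives, Slc1a3, Slc1a5, Slc6a6, Slc7a6, Slc7a7 and Slc43a2 kept their direction and their call. Slc3a2 kept its direction (0.69 to 1.13) and lost its call in 5 fits without 1 library (0.69 to 1.12 over all 10 of these). Members called higher were 4 to 9 with 1 library left out and 8 when control replicate 2 was left out with cold replicate 5, and those called lower 2 to 3; members with groups that do not overlap were 6 to 10 with 1 library left out and 10 without both. Some members that were not called changed sign. With 1 library left out Slc36a2 ran from -0.026 to 0.068 (-0.019 without cold replicate 1), Slc38a10 from -0.21 to 0.0025, Slc7a1 from -0.030 to 0.52, Slc7a11 from -0.27 to 0.36 (0.05 without cold replicate 5, 0.03 without control replicate 5) and Slc7a8 from -0.85 to 0.98. Limma-voom gave 0.18 for Slc7a11 and 0.27 for Slc7a8, and leaving out control replicate 2 with cold replicate 5 put Slc7a8 at 0.92 (adjusted p = 0.0584). The replicate block gave 0.10 for Slc7a11, 0.16 for Slc7a8, 5 members higher and 3 lower, and 981 genes higher and 808 lower. Correlations of same-numbered libraries ran from -0.255 to 0.192, too few values to show or exclude a pairing by number. The main fit used no pairing. Slc1a4 was called with the block (adjusted p = 0.0438), with DESeq2 (0.0451) and without control replicate 5 (0.0402), and its adjusted p over all alternatives was up to 0.332. The cause was not tested. Depth limits the 35 genes under the filter.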
